A study of Mus musculus with 6 samples.

Results

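The collagens and extracellular matrix genes described here are 39 genes, matched by symbol among the 54752 genes counted in each library: 15 collagen chains and 24 genes of elastic fibres, proteoglycans, adhesive glycoproteins, laminins, matrix enzymes and their inhibitors. All 39 symbols were found. They were followed through the stroma of lymph nodes that drain melanoma in C57Bl/6 mice. The series holds 6 libraries, made with a droplet method that counts transcripts from their 3′ ends by unique molecular identifiers (UMIs). Of these, 3 came from cells depleted of CD45, the surface protein of blood-derived cells, and these were used: 1 from tumor-free mice (the naive library), 1 from mice bearing YUMM1.7 and 1 from mice bearing YUMMER1.7. The YUMM1.7 line is melanoma grown in culture from an engineered mouse, and YUMMER1.7 cells descend from it after ultraviolet light added further mutations. Inguinal and axillary nodes of several mice were pooled for each library, so each arm is 1 sample, and no test between tumours could be made. The stage of tumour growth, the sex and the age of the mice were not used here. Intervals are exact 95% intervals that cover counting error only, and they do not cover the spread between mice.

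The matrix of a lymph node is a network of collagen fibres wrapped by fibroblastic reticular cells, with basement membranes under its vessels and a collagen-rich capsule and adventitia around it. Fibrillar collagens form the fibres, fibril-associated collagens and small leucine-rich proteoglycans set their spacing and diameter, and elastic fibres are built from elastin on a scaffold of fibrillin. Type IV collagen, laminins, nidogen and perlecan form basement membranes, and matrix metalloproteinases and their tissue inhibitors (TIMPs) govern turnover of the whole.

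The CD45-depleted libraries held 7500 to 13821 cell barcodes and 67709285 to 78240566 UMIs, and 6554 to 12382 cells passed the filters. Many were still lymphocytes: B cells were 2571 of 6554 cells kept in the YUMMER1.7 library and 4631 of 8287 in the YUMM1.7 library. Pairs of the series' 6 libraries shared 6 to 49 barcodes, at most 0.427% of the smaller library in pairs of depleted libraries. Stromal cells were clustered without any of the 39 genes or 171 further matrix genes, so that their levels did not define the groups. The stroma fell into 9 groups with enough cells to compare, each called by a gene that marked it. The 5 fibroblastic groups, with their cells in the YUMM1.7 library and then the YUMMER1.7 library, were Pi16+ adventitial-like cells (38 and 37), Mgp+ cells (56 and 75), Ccl21a+ reticular-like cells (34 and 33), Cxcl12+ reticular-like cells (88 and 177) and Cxcl13+ reticular-like cells (44 and 92). The 4 endothelial groups were Mmrn1+ lymphatic (130 and 126), Ccl20+ lymphatic (71 and 98), Gpihbp1+ capillary (35 and 107) and Chst4+ venular (78 and 144). Mgp+ cells carried markers of adventitial fibroblasts and of pericytes or smooth muscle together and were given no cell type name. The names rest on rebuilt clusters: the summed level of 10 adventitial markers in Pi16+ cells was 9500 CPM (UMIs of the gene per 1000000 UMIs of the group) in the YUMM1.7 library and 7466 CPM in the YUMMER1.7 library, and that of 9 reticular markers in Ccl21a+ cells was 33008 and 30227 CPM. The naive library held 7 cells of the fibroblastic groups in all and was used only for the lymphocyte background.

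The 39 genes together made up a larger share of the RNA in Pi16+ and Mgp+ cells than in reticular cells, and a smaller share still in endothelium. In Pi16+ cells they took 6.20% of UMIs in the YUMM1.7 library (6.14 to 6.26%) and 7.97% in the YUMMER1.7 library (7.92 to 8.03%). In Mgp+ cells the shares were 8.06% and 7.65%. Ccl21a+, Cxcl12+ and Cxcl13+ cells gave 1.54, 2.20 and 0.941% in the YUMM1.7 library and 1.72, 2.23 and 1.13% in the YUMMER1.7 library. The 4 endothelial groups lay between 0.520 and 0.818% and between 0.630 and 0.773%. By single gene, the group with the highest CPM was fibroblastic for 35 of 39 genes in the YUMM1.7 library and 34 in the YUMMER1.7 library, and it was the same group in both libraries for 28. Pi16+ cells were highest for 15 and 22 genes and Mgp+ cells for 18 and 11. Mmrn1+ lymphatic cells were highest for 3 genes in each library, and blood endothelium for 1 and 2.

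**Figure D1:**
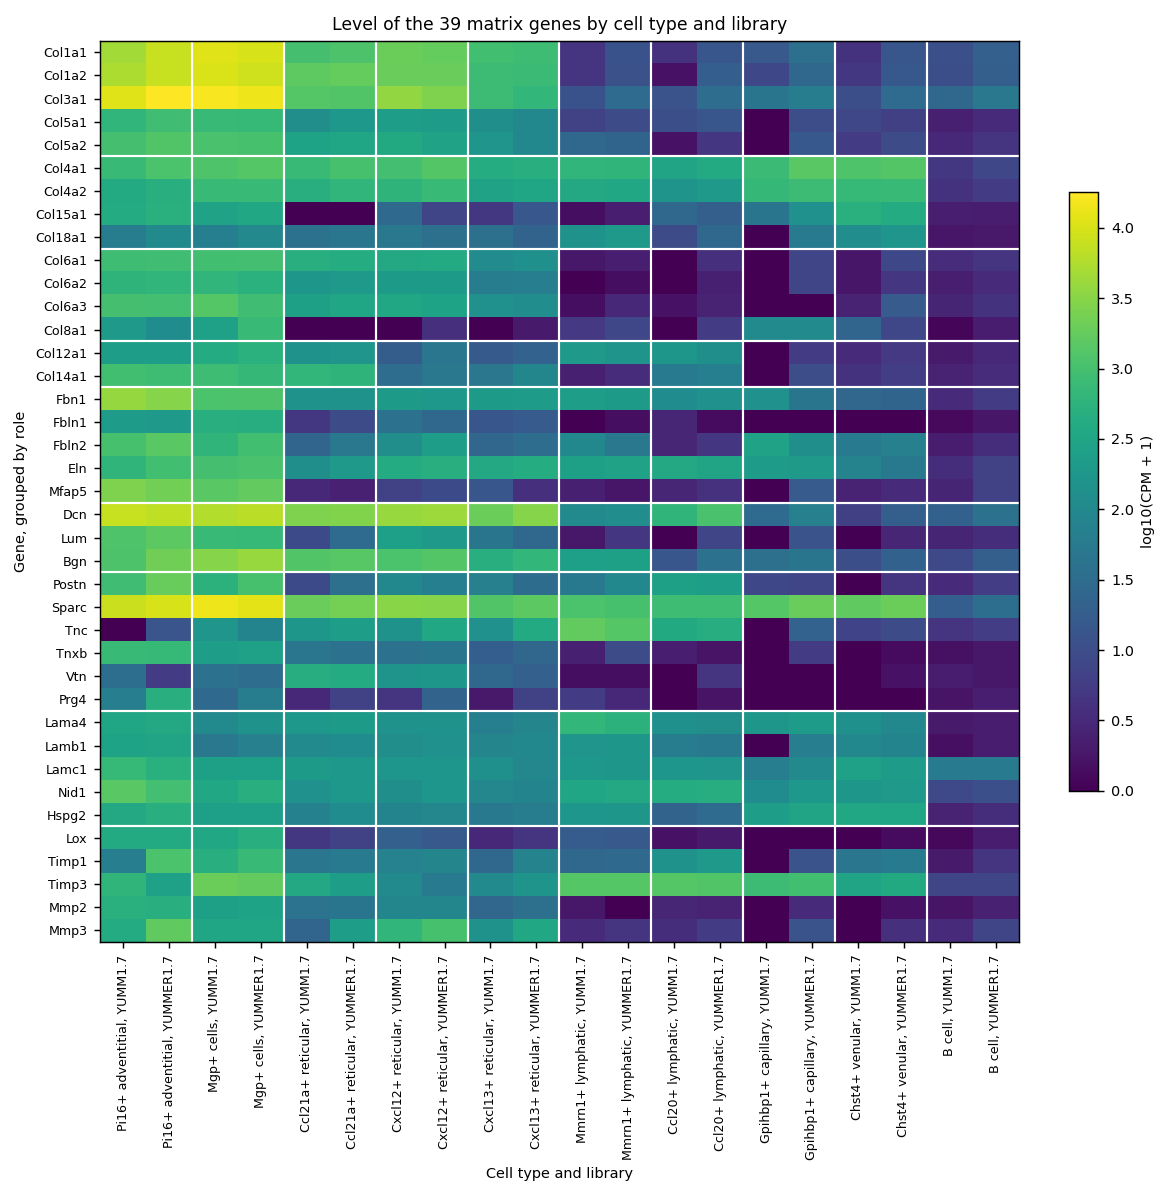
CPM of the 39 genes (rows, by role) in the 9 stromal groups and in B cells (columns) of each tumour library, on a colour scale of log10(CPM + 1). Col3a1, Dcn and Sparc are strongest in the fibroblastic columns, Col4a1 and Col4a2 appear in every stromal column, and Tnc and Timp3 are strong in lymphatic endothelium.

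Fibrillar collagens were concentrated in Pi16+ and Mgp+ cells. Col3a1, the type III chain of reticular fibres, stood at 11106 CPM in Pi16+ and 16586 CPM in Mgp+ cells of the YUMM1.7 library, and at 17989 and 14278 CPM in the YUMMER1.7 library. In Cxcl12+ cells it stood at 3619 and 2674 CPM, in Ccl21a+ cells at 1342 and 1255 CPM, and in Cxcl13+ cells at 823 and 659 CPM. The 2 chains of type I collagen were likewise higher in Cxcl12+ than in Cxcl13+ cells. In Pi16+ cells Col1a1 stood at 4594 and 7949 CPM and Col1a2 at 5414 and 7921 CPM. Col1a1 was at 11253 and 10100 CPM in Mgp+ cells, 1962 and 1743 CPM in Cxcl12+ cells and 909 and 858 CPM in Cxcl13+ cells, and Col1a2 was at 10324 and 8958, 1936 and 1911, and 814 and 783 CPM. Across 13 group and library values with enough UMIs, Col1a1 UMIs per Col1a2 UMI lay between 0.642 and 1.13, with a median of 1. The type V chains Col5a1 and Col5a2, which start type I fibrils, were also highest in Pi16+ and Mgp+ cells, with Col5a1 at 634 to 880 CPM and Col5a2 at 1006 to 1251 CPM there. Col5a2 and Col3a1 lie beside each other on chromosome 1 with a gap of 24614 bp between the gene models.

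The filament-forming and fibril-associated collagens divided the fibroblastic groups further. Type VI chains Col6a1, Col6a2 and Col6a3 were found throughout the fibroblastic groups, and Col6a1 went from 924 and 948 CPM in Mgp+ cells through 456 and 426 CPM in Ccl21a+ cells to 113 and 134 CPM in Cxcl13+ cells. Col8a1, a short-chain collagen of vessel walls, was near absent from reticular cells: no UMI was counted in any of the 3 reticular groups of the YUMM1.7 library, where 3 UMIs would be 5.89 CPM in Ccl21a+ cells, and it reached at most 2.87 CPM in the YUMMER1.7 library. It stood at 268 and 752 CPM in Mgp+ cells and at 110 and 110 CPM in capillary cells. Col14a1, a fibril-associated collagen, separated Ccl21a+ cells from the other reticular cells, with 646 and 594 CPM there against 32.2 and 50.3 CPM in Cxcl12+ cells and 48.1 and 88.6 CPM in Cxcl13+ cells. Its relative Col12a1 was at 147 and 165 CPM in Ccl21a+ cells and, outside the fibroblasts, at 199 and 161 CPM in Mmrn1+ and 177 and 131 CPM in Ccl20+ lymphatic cells.

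Elastic fibre genes were highest in the Pi16+ and Mgp+ groups, elastin among them. Fbn1, the fibrillin of microfibrils, stood at 3860 and 3034 CPM in Pi16+ cells and at no more than 232 CPM in any group other than Pi16+ and Mgp+. Mfap5, a microfibril-associated glycoprotein, had 2680 and 2267 CPM in Pi16+ cells and 1469 and 1694 CPM in Mgp+ cells, against at most 16 CPM in the other 7 groups. The fibulins Fbln1 and Fbln2 were highest in Mgp+ and Pi16+ cells, with Fbln1 at 460 and 449 CPM in Mgp+ cells and Fbln2 at 1043 and 1448 CPM in Pi16+ cells. Eln was counted in every group. It stood at 998 and 1078 CPM in Mgp+ cells and 609 and 937 CPM in Pi16+ cells. Lower levels were 413 and 464 CPM in Cxcl12+ cells and 367 and 303 CPM in Ccl20+ lymphatic cells.

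Among the small leucine-rich proteoglycans, Dcn (decorin) was a gene of all fibroblastic groups, and both lymphatic groups held it at lower levels. Dcn stood at 7922 and 6916 CPM in Pi16+ cells, 3976 and 4248 CPM in Cxcl12+ cells and 2015 and 3069 CPM in Cxcl13+ cells. In Ccl20+ lymphatic cells it stood at 604 and 1087 CPM, against 105 and 121 CPM in Mmrn1+ lymphatic cells and 5.50 and 18.2 CPM in venular cells. Lum (lumican), which lies 46984 bp from Dcn on chromosome 10, was restricted further, with 1214 and 1511 CPM in Pi16+ cells and 7.86 and 29.7 CPM in Ccl21a+ cells. Bgn (biglycan) was highest in Mgp+ cells, at 3016 and 3921 CPM, and was also present in Mmrn1+ lymphatic cells at 249 and 260 CPM.

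The adhesive and matricellular genes did not share 1 group: Tnxb, Postn and Prg4 were highest in Pi16+ cells, Tnc in Mmrn1+ lymphatic cells and Vtn in Ccl21a+ cells. Sparc, a collagen-binding glycoprotein, was counted in all 9 groups, from 843 CPM in Ccl20+ lymphatic cells of the YUMMER1.7 library to 14075 CPM in Mgp+ cells of the YUMM1.7 library. Tnc (tenascin-C, chr4:63959785-64047015) was highest in Mmrn1+ lymphatic cells, at 1736 and 1373 CPM. It followed in Ccl20+ lymphatic cells with 382 and 440 CPM. Pi16+ cells of the YUMM1.7 library held none in 624320 UMIs, where 3 UMIs would be 4.81 CPM. Within Mmrn1+ cells, Tnc sat in 1 finer cluster at 2534 and 2356 CPM and in the other large one at 377 and 334 CPM, YUMM1.7 first. Tnxb, the tenascin of loose connective tissue, stood in Pi16+ cells at 729 and 696 CPM. Vtn (vitronectin) was a gene of Ccl21a+ cells, at 448 and 416 CPM there, 156 and 180 CPM in Cxcl12+ cells and at most 39.3 CPM elsewhere. Postn (periostin) stood at 881 and 1837 CPM in Pi16+ cells, 544 and 1040 CPM in Mgp+ cells and 258 and 233 CPM in Ccl20+ lymphatic cells. Prg4 (lubricin) stood at 64.1 and 486 CPM in Pi16+ cells.

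Basement membrane genes were shared between fibroblasts and vessels. Col4a1 and Col4a2 encode the chains of the common type IV collagen and are transcribed away from each other from a single stretch of chromosome 8: in GRCm38 (mm10, GENCODE vM21), Col4a1 lies at chr8:11198423-11312826 on the minus strand and Col4a2 at chr8:11312805-11449287 on the plus strand, and their start sites are 21 bp apart. The promoter windows below run from 250 bases before to 50 after each RefSeq start (GRCm38.p6, chr8:11312777-11313076 on the minus strand and chr8:11312555-11312854 on the plus strand). They are shown because both genes were counted in every group and start close together. Each runs 5′ to 3′ along its own gene, and capitals mark the 78 bases both windows hold, as reverse complements of each other.
Col4a1: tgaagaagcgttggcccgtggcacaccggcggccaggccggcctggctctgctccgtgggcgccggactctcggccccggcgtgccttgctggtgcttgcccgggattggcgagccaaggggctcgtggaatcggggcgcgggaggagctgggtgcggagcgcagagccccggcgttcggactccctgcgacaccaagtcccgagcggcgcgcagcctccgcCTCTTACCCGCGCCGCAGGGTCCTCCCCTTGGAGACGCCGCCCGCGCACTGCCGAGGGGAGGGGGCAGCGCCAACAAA
Col4a2: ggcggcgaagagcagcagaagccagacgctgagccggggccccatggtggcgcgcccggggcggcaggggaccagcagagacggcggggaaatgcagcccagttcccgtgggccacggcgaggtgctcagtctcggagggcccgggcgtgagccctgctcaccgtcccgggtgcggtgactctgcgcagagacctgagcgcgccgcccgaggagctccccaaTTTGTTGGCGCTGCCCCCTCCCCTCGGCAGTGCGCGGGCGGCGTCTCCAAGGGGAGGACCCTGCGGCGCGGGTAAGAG
Col4a1 was counted in all 9 groups, from 310 and 395 CPM in Ccl20+ lymphatic cells to 1198 and 1304 CPM in venular cells and 1223 and 1363 CPM in Mgp+ cells, while capillary cells, at 803 and 1452 CPM, were the highest of the YUMMER1.7 library. Col4a2 went from 159 and 192 CPM to 707 and 735 CPM and 741 and 748 CPM in the same groups, with 672 and 819 CPM in capillary cells. Over the 18 values, Col4a1 UMIs per Col4a2 UMI lay between 1.2 and 2.33 with a median of 1.74. Col6a1 and Col6a2, whose gene models are 85161 bp apart on the same strand of chromosome 10, gave a ratio between 1.42 and 2.55 over 10 values.

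The other basement membrane members were less even. Col15a1 was a gene of venular cells (495 and 411 CPM), Pi16+ cells (415 and 498 CPM) and Mgp+ cells (287 and 344 CPM), and no UMI was counted in Ccl21a+ cells of either library. Col18a1, the source of endostatin, was highest in Mmrn1+ lymphatic cells, at 150 and 202 CPM, with 123 and 164 CPM in venular cells. Lama4, the laminin chain of vessel walls, was also highest in Mmrn1+ cells, at 644 and 550 CPM. Lamb1 stood at 288 and 310 CPM in Pi16+ cells and Lamc1 at 695 and 506 CPM. Nid1 (nidogen) was highest in Pi16+ cells at 1488 and 956 CPM, with 433 and 453 CPM in Ccl20+ lymphatic cells and 349 and 478 CPM in Mgp+ cells. Hspg2 (perlecan) stood at 365 and 490 CPM in Pi16+ cells and 343 and 331 CPM in venular cells.

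Each of the enzymes and inhibitors was highest in a fibroblastic group, while Timp3 was also counted in every endothelial group. Lox, which cross-links collagen and elastin, and Mmp2, a gelatinase, were genes of Pi16+ cells (399 and 401 CPM, 503 and 462 CPM) and Mgp+ cells (360 and 457 CPM, 266 and 291 CPM). Timp3, the matrix-bound inhibitor, was highest in Mgp+ cells, at 1995 and 1716 CPM, and stood at 1379 and 1345 CPM in Mmrn1+ and 1365 and 1256 CPM in Ccl20+ lymphatic cells. In blood endothelium it stood at 825 and 924 CPM in capillary and 300 and 385 CPM in venular cells. Mmp3 (stromelysin-1) was a gene of the fibroblastic groups alone among the 9: it was counted at no more than 11.4 CPM in any endothelial group. Timp1, a soluble inhibitor, was counted at 154 and 192 CPM in Ccl20+ lymphatic cells. Its levels in Pi16+, Mgp+ and Cxcl13+ cells are given with the tumour comparison.

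**Figure D2:**
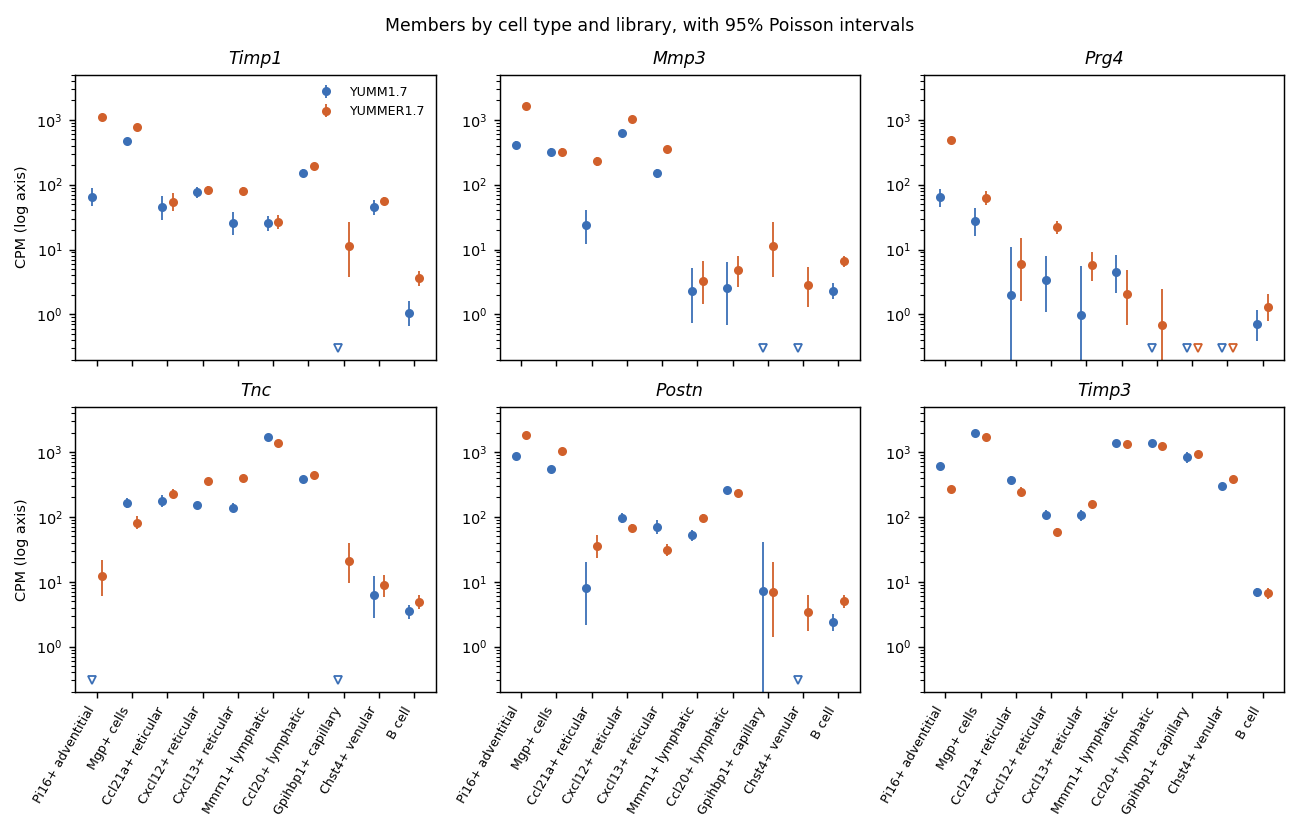
CPM of Timp1, Mmp3, Prg4, Tnc, Postn and Timp3 in the 9 stromal groups and in B cells, with 1 point per tumour library, exact Poisson 95% intervals as bars and a log axis; open triangles mark groups with no UMI. The points of the 2 libraries lie far apart for Timp1, Prg4 and Mmp3 in Pi16+ cells, and close together for Timp3 and Tnc in lymphatic cells.

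Matrix RNA also appeared in lymphocytes, which make no fibrillar collagen, and their level was taken as that of RNA free in the suspension. In B cells, Col3a1 stood at 0.351 CPM in the naive library (12 UMIs), 25.4 CPM in the YUMM1.7 library and 49.9 CPM in the YUMMER1.7 library. Dcn stood at 0.584, 20 and 39.8 CPM, and Sparc at 0.468, 17.5 and 33.4 CPM. A UMI of Col3a1 was found in 0.134, 9.35 and 23.4% of B cells, and in 0.0533, 4.64 and 10.2% after every cell was thinned to 2000 UMIs. The B cell level of a gene was a small part of its level in the 5 fibroblastic groups together: the median over the 39 genes was 0.470% in the YUMM1.7 library and 1.03% in the YUMMER1.7 library. Only Lamc1 lay above 5%, at 22.4 and 31.0%. Lamc1, the laminin gamma chain, was at 68.5 CPM in B cells of the naive library too, and at 57.9 and 58.3 CPM in the tumour libraries, so its B cell level was not lower where stroma was scarce.

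Between tumours, the lymphocyte background itself differed. Over the 28 genes with at least 50 UMIs in B cells of both libraries together, the ratio of YUMMER1.7 over YUMM1.7 CPM ran from 0.967 to 3.43 with a median of 1.90, and 22 were at least 1.5-fold higher. By CPM, some fibrillar collagens in endothelium were no higher than in B cells. Col1a1, Col1a2 and Col3a1 in the 2 lymphatic groups and venular cells were at or below the B cell CPM in both libraries. Col5a2 in Mmrn1+ cells, at 26.7 and 22.8 CPM, was above it. At or below it in all were 13 and 12 of the 39 genes in Mmrn1+ cells, 11 and 12 in Ccl20+ cells, 21 and 5 in capillary cells and 17 and 14 in venular cells, against 1 and 0 in Pi16+ cells and 0 and 0 in Mgp+ cells. Dcn in Ccl20+ cells, at 604 and 1087 CPM, was above it. These are shares of UMIs, and cells differed in depth. Medians were 3721 and 4879 UMIs in B cells, 15561.5 and 18668 in Mmrn1+, 19821 and 25932 in Ccl20+ and 13323 and 17472.5 in venular cells. An equal CPM was thus more UMIs per cell in those endothelial groups. How much of their collagen RNA was free RNA was not tested.

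**Figure D3:**
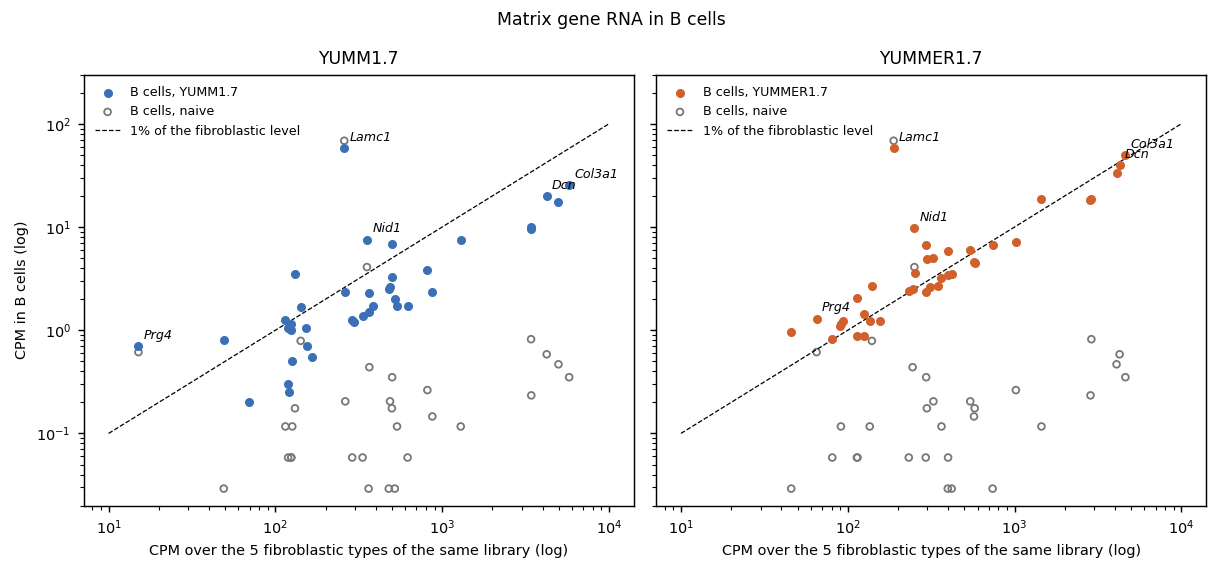
CPM of each matrix gene in B cells (vertical) against its CPM over the 5 fibroblastic groups (horizontal), on log axes, with 1 panel per tumour library; filled points are B cells of that library, open points B cells of the naive library, and the dashed line is 1% of the fibroblastic level. Col3a1 and Dcn lie far above their open points in both panels, while Lamc1 stays between 57.9 and 68.5 CPM.

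The tumour comparison asked which of the 39 genes stood higher or lower in stroma draining YUMMER1.7 than in stroma draining YUMM1.7. A gene counted as measured in a group with at least 50 UMIs over both libraries, and as higher or lower where its CPM differed at least 1.5-fold. Of 351 gene and group pairs, 253 were measured, 45 were higher (where 6.37% of all measured gene and group pairs were) and 17 lower (where 8.35% were) in the YUMMER1.7 library, and the other 191 lay within 1.5-fold. The median log2 ratio over the measured genes ran from −0.029 in Mmrn1+ cells to 0.36 in capillary cells.

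**Figure D4:**
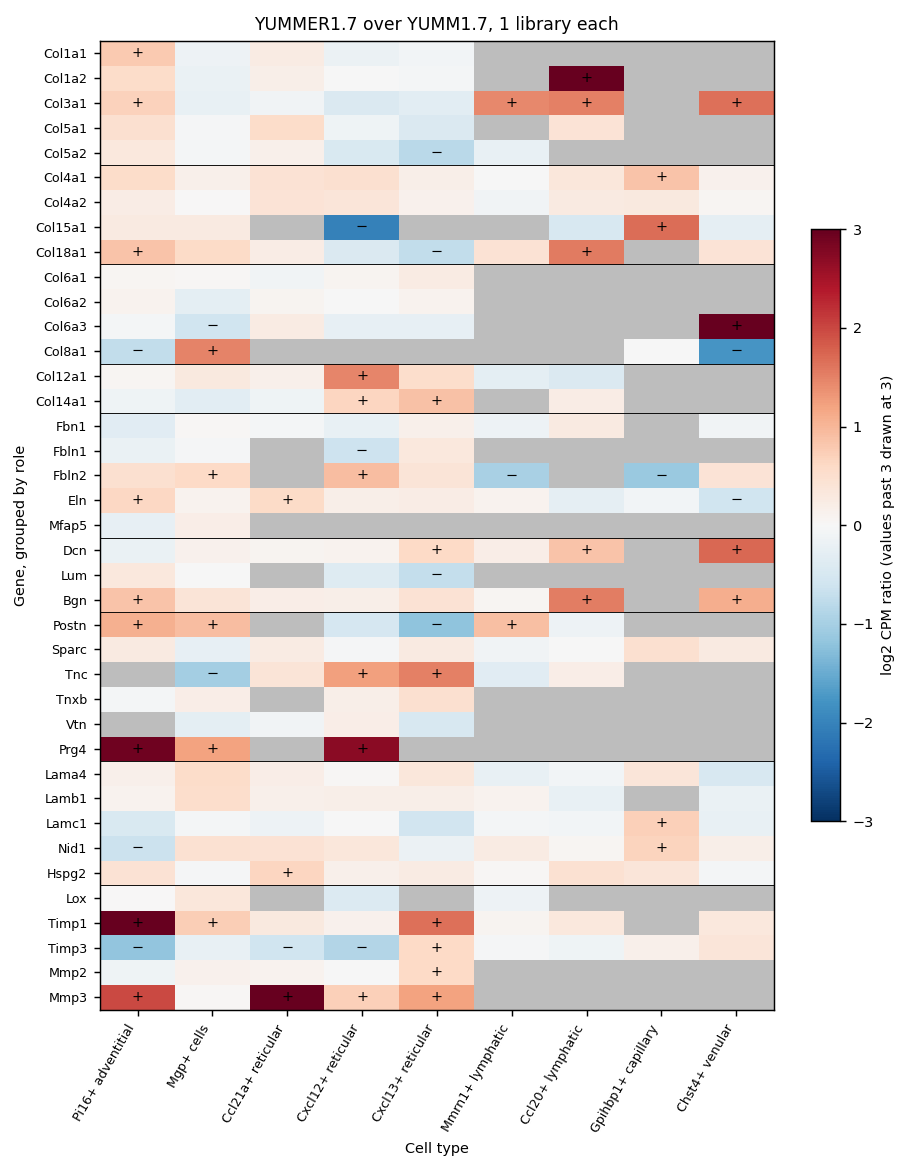
Log2 ratio of YUMMER1.7 over YUMM1.7 CPM for the 39 genes (rows) in 9 stromal groups (columns), with + and − marking ratios of at least 1.5-fold and grey marking fewer than 50 UMIs over both libraries. Higher marks (45) outnumber lower marks (17).

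In Pi16+ adventitial-like cells, Timp1, Prg4 and Mmp3 were higher in the YUMMER1.7 library, and Timp3, Nid1 and Col8a1 were lower. Of 37 measured genes, 9 were higher, where 10.8% of all 4998 measured genes were, and 3 were lower, where 14% were; the median log2 ratio was 0.23 against −0.024 over all genes. Timp1 (chrX:20870166-20874735) had 41 UMIs at 65.7 CPM in the YUMM1.7 library and 1015 UMIs at 1114 CPM in the YUMMER1.7 library, a 17.0-fold ratio (12.4 to 23.8). Prg4 stood at 64.1 and 486 CPM, a 7.59-fold ratio (5.48 to 10.8), and Mmp3 at 413 and 1634 CPM, a 3.95-fold ratio (3.46 to 4.53).

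Collagens and their partners were higher by less. Postn stood at 881 and 1837 CPM (2.09-fold, 1.89 to 2.30), Bgn at 1185 and 2152 CPM (1.82-fold, 1.67 to 1.98) and Col1a1 at 4594 and 7949 CPM (1.73-fold, 1.66 to 1.81). Col3a1 was 1.62-fold higher, Eln 1.54-fold and Col18a1 1.81-fold, the last on 37 and 98 UMIs. Lower were Timp3 at 609 and 268 CPM (0.440-fold, 0.373 to 0.518), Nid1 at 1488 and 956 CPM (0.642-fold) and Col8a1 at 194 and 116 CPM (0.600-fold). The 2 TIMPs among the members thus went apart in this group, with Timp1 higher and Timp3 lower.

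Cell by cell, Timp1 was found in 21 of 38 Pi16+ cells of the YUMM1.7 library and in 29 of 37 of the YUMMER1.7 library, with medians of 39.6 and 142 CPM. Prg4 was found in 11 of 38 and 30 of 37 cells, and Mmp3 in 16 of 38 and 23 of 37. The YUMMER1.7 library was deeper, with a median of 23396 UMIs per Pi16+ cell against 15024. After thinning to 2000 UMIs, Timp1 was in 7.89% of cells of the YUMM1.7 library and 40.5% of cells of the YUMMER1.7 library. Without the 2 cells of each library with most UMIs of the gene, the ratios were 14.4-fold for Timp1, 8.49-fold for Prg4 and 3.47-fold for Mmp3, while that of Col8a1 was 1.07-fold. More than 2 cells carried Timp1, but still few: of 1015 UMIs in the YUMMER1.7 library, the 6 highest cells held 88 to 225 each and the next 27.

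The group joined a finer cluster high in Pi16 (21 and 15 cells) with one high in Cxcl14 (17 and 22 cells), and their shares differed between libraries. Timp1 was 2.39-fold higher in the first and 18.5-fold in the second, and Prg4 2.89- and 7.30-fold. Mmp3 was 0.536-fold in the Pi16-high cluster and 3.01-fold in the Cxcl14-high one. Postn was 4.21- and 1.13-fold, Bgn 2.75- and 1.16-fold, Col1a1 2.05- and 1.27-fold and Col8a1 5.10- and 0.201-fold. Eln was 5.08- and 0.537-fold. Timp3 was 0.833- and 0.241-fold, so it passed 1.5-fold only in the Cxcl14-high cluster. Nid1 was 0.808- and 0.731-fold and passed it in neither. So the direction of Mmp3, Col8a1 and Eln depended on the finer cluster, and that of Timp1, Prg4, Col1a1, Bgn, Postn, Timp3 and Nid1 did not. Marker levels differed as well: its level of Pi16 itself was 1464 and 835 CPM, and those of Cxcl12 372 and 1240 CPM and Cxcl13 471 and 1563 CPM. The summed level of 16 stress genes was 0.972-fold, and that of 8 macrophage markers was 14.4 and 4.39 CPM. The part of these shifts in the result was not tested.

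**Figure D5:**
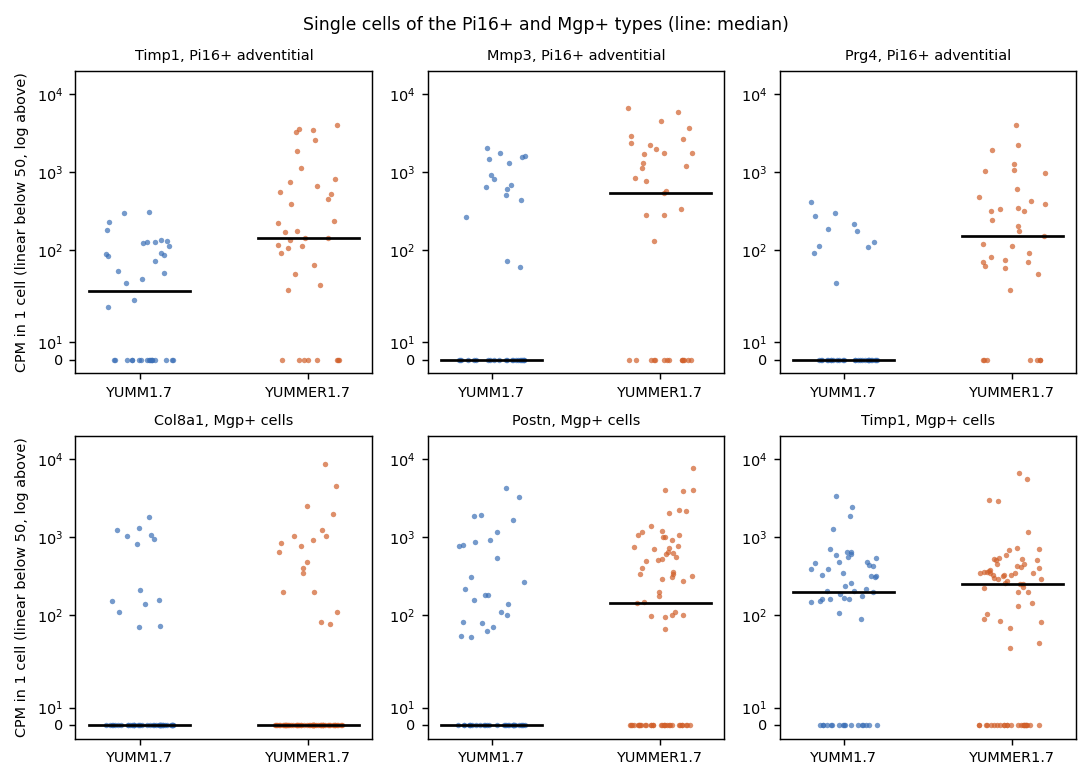
CPM of Timp1, Mmp3 and Prg4 in single Pi16+ cells, and of Col8a1, Postn and Timp1 in single Mgp+ cells, of each tumour library, on an axis that is linear below 50 CPM and logarithmic above, with the median as a line. For Timp1 in Pi16+ cells the median is 39.6 CPM in the YUMM1.7 library and 142 CPM in the YUMMER1.7 library, where the 6 highest cells lie at 1869 to 3965 CPM. In Mgp+ cells too, a few cells reach far above the rest.

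In Mgp+ cells all 39 genes were measured, and fewer departed: 5 were higher, where 6.92% of all genes were, and 2 were lower, where 6.3% were. Col8a1 stood at 268 and 752 CPM (2.81-fold, 2.38 to 3.33), Postn at 544 and 1040 CPM (1.91-fold), Timp1 at 464 and 769 CPM (1.66-fold), Fbln2 at 603 and 915 CPM (1.52-fold) and Prg4 at 27.2 and 63.2 CPM (2.32-fold, 1.35 to 4.18). Lower were Tnc at 165 and 81.8 CPM (0.497-fold, 0.367 to 0.670) and Col6a3 at 1370 and 906 CPM (0.662-fold). A few cells carried some of these. In the YUMMER1.7 library the 2 highest of 75 cells held 557 of 726 Col8a1 UMIs, 583 of 1004 Postn UMIs and 484 of 742 Timp1 UMIs. Without the 2 highest cells of each library, Timp1 had a ratio of 0.996, Col8a1 of 1.34 and Postn of 1.34, and Prg4 of 1.81. Col3a1, Col1a1, Col1a2 and Sparc, at 8958 to 16586 CPM, lay within 1.5-fold.

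In the reticular groups Mmp3 was higher in the YUMMER1.7 library in all 3, and Tnc in 2. The RefSeq promoter window of Mmp3 (GRCm38.p6, chr9:7445572-7445871, plus strand) is shown here because this gene passed the fold in 4 of the 5 fibroblastic groups; capitals mark the AP-1 motif TGANTCA, searched on both strands.
Mmp3: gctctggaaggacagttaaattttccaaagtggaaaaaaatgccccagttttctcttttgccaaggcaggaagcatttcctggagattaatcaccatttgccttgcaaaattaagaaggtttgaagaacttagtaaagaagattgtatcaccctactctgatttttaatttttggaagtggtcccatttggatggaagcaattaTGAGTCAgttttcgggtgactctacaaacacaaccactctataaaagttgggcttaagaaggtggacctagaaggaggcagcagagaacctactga
The motif lies 46 bases before the start. It was found in 3 of the 26 members with a RefSeq window (Col6a1, Mmp3 and Tnxb) and in 7.81% of 32851 windows of that length. In Ccl21a+ cells Mmp3 had 12 and 154 UMIs, at 23.6 and 229 CPM, a 9.70-fold ratio (5.40 to 19.2). In Cxcl12+ cells it stood at 621 and 1021 CPM (1.65-fold, 1.53 to 1.77) and in Cxcl13+ cells at 150 and 350 CPM (2.33-fold, 1.96 to 2.78). In Mgp+ cells it stood at 317 and 324 CPM and lay within 1.5-fold.

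Tnc stood at 150 and 354 CPM in Cxcl12+ cells (2.36-fold, 2.04 to 2.73) and at 139 and 399 CPM in Cxcl13+ cells (2.86-fold, 2.40 to 3.43). It was 1736 and 1373 CPM in Mmrn1+ lymphatic cells, its highest group. In the finer clusters of Cxcl12+ cells the Tnc ratio was 2.88 and 2.27, and in those of Cxcl13+ cells 6.78 and 1.90; that of Mmp3 was 1.86 and 1.32, and 4.76 and 1.62. The stress genes were 1.46-fold higher in Cxcl12+ cells and 1.47-fold in Cxcl13+ cells, and their part in these ratios was not tested.

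Ccl21a+ cells had 29 measured genes, 3 higher (where 6.53% of all genes were) and 1 lower (where 9.19% were). Beside Mmp3 these were Eln at 132 and 198 CPM (1.5-fold, 1.11 to 2.04) and Hspg2 at 72.7 and 114 CPM (1.57-fold, 1.05 to 2.40), with Timp3 lower at 369 and 244 CPM (0.659-fold). Dcn, Sparc, Col1a2, Bgn and Col3a1, with 1240 to 2863 CPM, lay within 1.5-fold in both directions. Some markers differed in Ccl21a+ cells: Mgp stood at 64.8 and 631 CPM and Glycam1 at 37.3 and 144 CPM. Ccl21a, at 25676 and 22612 CPM, and Ccl19, at 5060 and 5372 CPM, differed little. Mgp was also higher in Cxcl12+ cells (27.5 and 190 CPM) and Cxcl13+ cells (9.82 and 77.9 CPM), and lower in Pi16+ cells (1129 and 189 CPM). The part of these marker shifts in the ratios was not tested. Cxcl12+ cells had 37 measured genes, 6 higher (4.99% of all genes were) and 3 lower (6.8% were). Col12a1 stood at 16.8 and 46.4 CPM (2.77-fold, 1.81 to 4.39), Prg4 at 3.36 and 21.9 CPM (6.53-fold, 2.69 to 20.6, on 5 and 84 UMIs), Fbln2 at 126 and 241 CPM (1.91-fold) and Col14a1 at 32.2 and 50.3 CPM (1.56-fold). Lower were Col15a1 at 27.5 and 6.78 CPM (0.246-fold, 0.145 to 0.413), Timp3 at 108 and 58.7 CPM (0.543-fold) and Fbln1 at 38.9 and 25.3 CPM (0.650-fold). Timp3 was thus lower in 3 of the 5 fibroblastic groups, Pi16+, Ccl21a+ and Cxcl12+. Without the 2 highest cells of each library it was 0.683-fold in Ccl21a+ and 0.709-fold in Cxcl12+ cells, both within 1.5-fold. Lymphatic markers differed in Cxcl12+ cells: Prox1 stood at 15.4 and 1.56 CPM and Lyve1 at 24.2 and 1.30 CPM. Mmrn1, at 0.671 and 0.782 CPM, and Ccl21a, at 5051 and 7389 CPM, did not fall. Their part in the ratios was not tested.

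Cxcl13+ cells had 34 measured genes, 7 higher (7.64% of all genes were) and 4 lower (14.8% were). Timp1 stood at 25.5 and 80.5 CPM (3.15-fold, 2.10 to 4.93), Col14a1 at 48.1 and 88.6 CPM (1.84-fold) and Dcn at 2015 and 3069 CPM (1.52-fold, 1.45 to 1.60). Of the 8 groups in which Timp1 was measured, it passed the fold in 3, higher in Pi16+, Mgp+ and these cells. Timp3, lower in Pi16+, Ccl21a+ and Cxcl12+ cells, stood here at 105 and 159 CPM (1.52-fold), but its log2 ratio was −0.67 with the stroma clustered at resolution 1. Mmp2 stood at 24.6 and 36.9 CPM (1.5-fold) with an interval from 0.967 to 2.42. Lower were Postn at 70.7 and 30.9 CPM (0.437-fold, 0.317 to 0.603), Col5a2 at 167 and 95 CPM (0.569-fold), Lum at 43.2 and 26.5 CPM (0.613-fold) and Col18a1 at 36.3 and 21.8 CPM (0.600-fold). Other markers differed in these cells as well. The 10 high endothelial venule markers together stood at 293 and 653 CPM, with 4 and 0 at 0, the 11 blood endothelium markers at 138 and 258 CPM, with 1 at 0 in each library, and the 7 B cell markers at 646 and 267 CPM, with none at 0. Cxcl12 stood at 736 and 235 CPM, Rgs5 at 306 and 120 CPM and Cr2 at 369 and 145 CPM. Their part in the ratios was not tested.

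In endothelium fewer genes were measured. Mmrn1+ cells had 22, with 2 higher (2.93% of all genes were) and 1 lower (4.38% were): Postn stood at 52.0 and 97.1 CPM (1.87-fold, 1.49 to 2.36) and Fbln2 at 96.2 and 49.4 CPM (0.513-fold, 0.407 to 0.645), while Col3a1, at 10.8 and 29.5 CPM, lay below the B cell level of its library. Tnc, Timp3, Sparc, Col4a1 and Lama4, with 550 to 1736 CPM, lay within 1.5-fold. Ccl20+ cells had 23 measured genes, 5 higher (5% of all genes were) and 0 lower (6.02% were). Dcn stood at 604 and 1087 CPM (1.80-fold, 1.67 to 1.94) and Col18a1 at 8.89 and 26.2 CPM (2.95-fold, 1.65 to 5.64), while Bgn stood at 12.7 and 37.1 CPM. Col3a1 and Col1a2 in these cells were at or below the B cell level in CPM.

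Capillary cells had 12 measured genes, 4 higher (16.7% of all genes were) and 1 lower (10.1% were), and the median over all genes was itself shifted to a log2 ratio of 0.12. Col4a1 stood at 803 and 1452 CPM (1.81-fold, 1.47 to 2.23), Col15a1 at 43.8 and 139 CPM (3.18-fold, 1.38 to 8.99) and Fbln2 at 285 and 132 CPM (0.465-fold, 0.304 to 0.716), while the intervals of Nid1 (117 and 187 CPM) and Lamc1 (65.7 and 107 CPM) reached below 1. These cells were shallow, with medians of 2788 and 3293 UMIs. The 7 plasma cell markers together stood at 4843 and 564 CPM in them, with 1 and 2 at 0, and the 6 monocyte markers at 424 and 73.0 CPM, with 4 and 1 at 0. Their part in these ratios was not tested. Venular cells had 20 measured genes, 4 higher (5.73% of all genes were) and 2 lower (7.15% were). Col8a1 was lower at 23.6 and 6.91 CPM (0.293-fold, 0.161 to 0.525, on 30 and 22 UMIs), but its ratio was 1.58 without the 2 highest cells of each library. Eln was lower at 79.4 and 52.4 CPM (0.660-fold). Of those higher, Col3a1 and Dcn were at or below the B cell CPM in both libraries. Bgn stood at 9.44 and 20.1 CPM, and its interval reached the B cell level of 7.56 and 18.5 CPM in both libraries. Col6a3 stood at 1.57 and 15.7 CPM on 2 and 50 UMIs. In the YUMM1.7 library it was below the B cell level of 1.71 CPM. Col4a1, Col4a2, Sparc, Col15a1 and Timp3 lay within 1.5-fold. Markers of other cells differed in these cells too: the mural genes Rgs5, Acta2, Notch3 and Myh11 had 7, 0, 0 and 0 UMIs in the YUMM1.7 library and 209, 35, 23 and 19 in the YUMMER1.7 library. The 10 pericyte or smooth muscle markers together stood at 95.1 and 137 CPM, with 5 and 0 of them at 0. The part of these markers in the result was not tested.

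Among 171 further matrix genes in 10 lists, the same rule gave 121 gene and group pairs higher and 64 lower over the 9 groups. Of all measured pairs, 6.37% were higher and 8.35% lower. Measured further genes were 92 in Pi16+, 102 in Mgp+, 64 in Ccl21a+, 105 in Cxcl12+ and 93 in Cxcl13+ cells. In endothelium they were 76 in Mmrn1+, 76 in Ccl20+, 21 in capillary and 63 in venular cells. In Pi16+ cells, 26 of 92 measured were higher (10.8% of all genes were) and 15 lower (14% were), with a median log2 ratio of 0.098. Of 20 measured genes for collagen folding and processing 11 were higher and 0 lower, with a median log2 ratio of 0.70, and of 4 measured protease inhibitors 0 were higher and 4 lower, with a median of −1.18. Fkbp10, which folds and modifies procollagen, stood at 33.6 and 155 CPM, Col28a1 at 19.2 and 108 CPM and the protease Mmp19 at 28.8 and 130 CPM. Smoc2 was lower there, at 296 and 67.0 CPM, and higher in Cxcl12+ cells, at 14.8 and 67.3 CPM. Plau (urokinase) was lower at 57.7 and 16.5 CPM. In Mgp+ cells 15 of 102 were higher (6.92% of all genes were) and 2 lower (6.3% were). Aspn (asporin), a small proteoglycan, stood at 110 and 364 CPM and the protease Adamts9 at 87.7 and 213 CPM, with Adamts4 lower at 92.2 and 42.5 CPM and Adam12 at 301 and 195 CPM.

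Some of the further genes passed the fold in more than 1 reticular group. Thbs4, a thrombospondin, stood at 57.0 and 336 CPM in Ccl21a+ cells and was listed at 0 in Cxcl13+ cells of the YUMM1.7 library against 39.3 CPM, at least 13.3-fold higher when set against 3 UMIs. In Ccl21a+ cells the small matrix protein Dpt stood at 49.1 and 122 CPM and the fibrillin Fbn2 at 23.6 and 60.9 CPM, while Col28a1 (132 and 60.9 CPM), the collagen receptor chain Itga1 (886 and 579 CPM) and Abi3bp (281 and 181 CPM) were lower. Wisp2 stood at 20.1 and 115 CPM in Cxcl12+ cells and Plat, the tissue plasminogen activator, at 7.38 and 47.7 CPM. Lower in Cxcl12+ cells were the proteases Adamts3 (55.0 and 27.9 CPM) and Adamts10 (98.0 and 64.1 CPM) and the laminin chain Lama1 (25.5 and 13.3 CPM). In Cxcl13+ cells Wisp2 was at 0 and 67.1 CPM, at least 22.8-fold higher, and Sparcl1 at 2.95 and 26.5 CPM. Lower in Cxcl13+ cells were Col23a1 (34.4 and 8.05 CPM), Dpt (55.0 and 15.1 CPM) and Clec3b (45.2 and 12.4 CPM). In Mmrn1+ lymphatic cells Spon1 stood at 7.23 and 21.2 CPM, and Vwf (36.6 and 5.39 CPM), Hapln1 (33.4 and 12.4 CPM) and Reln (31.6 and 13.3 CPM) were lower. In Ccl20+ cells Vcan stood at 38.7 and 136 CPM, Col23a1 at 8.25 and 30.6 CPM and Ltbp4 at 9.52 and 28.2 CPM, with Adam12 (83.1 and 45.6 CPM) and Itga2 (39.4 and 19.7 CPM) lower. In capillary cells Igfbp7 stood at 2038 and 3547 CPM, Serpinh1, a collagen chaperone, at 299 and 552 CPM and Itga1 at 453 and 692 CPM, with Ltbp4 (365 and 142 CPM) and Ppib (511 and 333 CPM) lower. In venular cells Timp4, a further metalloproteinase inhibitor, stood at 53.5 and 3.14 CPM and the integrin chain Itgb3 at 41.7 and 25.1 CPM, while Col13a1 (14.9 and 61.2 CPM), Sparcl1 (227 and 344 CPM) and Cyr61 (103 and 158 CPM) were higher.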

How the data were processed

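Libraries were made with the Chromium GEM-X 3′ kit, and reads were counted with Cell Ranger 8.0.1 on mm10, per the submitters' processing notes. The deposited files hold raw UMI counts per gene and cell barcode, not normalized by the authors. The labels call the cells depleted of CD45, while the protocol speaks of enriching stroma with CD45 beads.

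Cells with at least 500 UMIs, 300 genes and at most 10% mitochondrial UMIs were kept, which removed 5.88 to 11.8% of barcodes by mitochondrial share. Scrublet's own threshold called 0.0115 to 2.37% of cells, so cells above the 95th percentile of its scores were removed. Scanpy 1.11.5 clustered the rest (2000 variable genes, 30 components, 15 neighbours, Leiden resolution 1, stroma again at 0.5) without the 39 genes, 171 further matrix genes, receptor, ribosomal, mitochondrial and sex-linked genes. Groups were named from marker lists and a gene chosen after the clusters were seen; Cr2+ cells (11 and 17) and a mixed cluster were left out of comparisons.

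UMIs were summed by group and library as CPM with exact Poisson intervals; intervals are Clopper-Pearson for shares and, for ratios, exact binomial given the sum of both counts (scipy 1.17.1). Such intervals cover counting error only, and 1 library per arm allows no test. Full values were given per group for the 5 genes with the highest CPM and up to 6 per direction past 1.5-fold with an interval leaving out a log2 ratio of 0, ranked by the bound nearest it (3 for further matrix genes); other members past the fold are named as well, and 1 further matrix gene that the rule names is not reported here. The computation was tested on simulated data. Alternatives in filters, doublets, clustering, scaling, depth, free RNA and thresholds were tried; 3 were added after the data were seen: leaving out the highest cells, Rgs5+ cells, and splitting the Pi16+ group. The 39 genes and the lists were chosen with earlier results of these data known. Positions are from GENCODE vM21, and promoter windows from RefSeq, which held 26 of 39 genes.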

Additional observations from a re-analysis of the deposited data

Results flagged for a closer look

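For 9 genes, a stromal group in which the gene was at least 1.5-fold higher in the YUMMER1.7 library stood beside a group in which it was at least 1.5-fold lower, with both intervals leaving out a ratio of 1. Nid1, higher in capillary and lower in Pi16+ cells, is not among them, since its capillary interval reached below 1. With 1 library per arm these differences between groups were not tested. In log2 units, the gap was 3.91 for Col6a3 between venular and Mgp+ cells, 3.69 for Col15a1 between capillary and Cxcl12+ cells and 3.26 for Col8a1 between Mgp+ and venular cells. It was 2.52 for Tnc between Cxcl13+ and Mgp+ cells, 2.30 for Col18a1 between Ccl20+ lymphatic and Cxcl13+ cells and 2.26 for Postn between Pi16+ and Cxcl13+ cells. It was 1.90 for Fbln2 between Cxcl12+ and Mmrn1+ lymphatic cells, 1.79 for Timp3 between Cxcl13+ and Pi16+ cells and 1.22 for Eln between Pi16+ and venular cells. The Col6a3 value in venular cells rests on 2 UMIs in the YUMM1.7 library, where its CPM was below that in B cells. The Col8a1 value in Mgp+ cells rests in large part on 2 cells of the YUMMER1.7 library, which held 76.7% of its UMIs there. The venular value of Col8a1 rests on 30 and 22 UMIs and was 1.58-fold without the 2 highest cells of each library. The Eln value in Pi16+ cells joins ratios of 5.08 and 0.537 in its finer clusters, and that of Timp3 in Cxcl13+ cells had a log2 ratio of −0.67 with the stroma clustered at resolution 1.

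A cluster of shallow barcodes, outside every comparison, had a median of 604 UMIs in 166 barcodes of the YUMM1.7 library and 601 UMIs in 1666 barcodes of the YUMMER1.7 library. The 39 matrix genes took 0.335% of its UMIs in the YUMM1.7 library and 0.632% in the YUMMER1.7 library. The share was 0.198% (0.105 to 0.338%) in 5 such barcodes of the naive library, and it was 0.0209 and 0.0341% in B cells of the tumour libraries.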

How the results depend on the processing

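No paired analysis was possible because each arm has 1 library. Counts of genes past the fold, and of genes highest in fibroblastic cells, with the B cell shares of collagen, stayed close (counts within 1.5 times) in 155 recomputations and moved further in 36. With matrix genes in the clustering, the members past the fold were 11 in Ccl20+ and 3 in capillary cells, and no Ccl21a+ group formed. Stromal resolution 1 gave 3 in capillary cells. Thinning to 2000 UMIs gave 10 in Ccl21a+, 14 in Cxcl12+, 9 in Ccl20+ and 3 in capillary cells. Of the further matrix genes it gave 182 gene and group pairs higher and 122 lower. A minimum of 20 UMIs gave 7 in Ccl21a+, 7 in Mmrn1+, 9 in capillary and 11 in venular cells. Of the further genes, 100 gene and group pairs were then lower. With 1 UMI in each library as the minimum, 79 gene and group pairs of the members were higher over the 9 groups. Past the fold were 10 members in Ccl21a+, 13 in Mmrn1+, 14 in Ccl20+, 9 in capillary and 13 in venular cells. Of the further genes, 227 gene and group pairs were higher and 217 lower. A fold of 2 left 23 gene and group pairs of the members higher and 6 lower. By group, 5 were past it in Pi16+, 3 in Mgp+, 1 in Ccl21a+, 4 in Cxcl12+, 4 in Cxcl13+, 1 in Mmrn1+ and 2 in capillary cells. Of the further genes, 51 pairs were higher and 23 lower. Without the 2 highest cells of each library, 11 gene and group pairs of the members were lower, and 4 members were past the fold in Mgp+ cells. The share of all genes past the fold was not computed under these other settings, so their counts cannot be read as particular to the matrix genes. The strict cell filter put fibrillar collagens at 0.00437% of B cell UMIs in the YUMM1.7 library, against 0.00483%. Of named genes, 777 recomputed ratios stayed within the counting interval, 193 moved beyond it and 20 reversed, none of these under another scaling or after subtraction of B cell RNA. The cause was not tested. As log2 ratios, with matrix genes in the clustering Mmp3 in Pi16+ cells was −0.90, Col8a1 2.35, Col14a1 in Cxcl12+ cells −0.71, Col15a1 0.89, Postn in Cxcl13+ cells 0.15 and Col18a1 in Ccl20+ cells −0.29. In the Pi16-high finer cluster Mmp3 was −0.90 and Col8a1 2.35. Thinning gave 0.038 for Col8a1 in Pi16+, −0.28 for Hspg2 in Ccl21a+, 0.71 for Fbln1 in Cxcl12+ and −0.064 for Col14a1 in Cxcl13+ cells, and resolution 1 gave −0.67 for Timp3 in Cxcl13+ cells. In venular cells, keeping doublets gave −0.92 for Col3a1, −1.12 for Dcn and −0.11 for Bgn, and the mean of single-cell CPM gave −0.62 for Bgn. Without the 2 highest cells, Col8a1 was 0.10 in Pi16+ and 0.66 in venular cells and Timp1 −0.0060 in Mgp+ cells. Depth limits capillary cells most: 3 UMIs were 21.9 CPM in the YUMM1.7 library.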
